A study of Homo sapiens with 24 samples.

Results

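Fulvestrant and raloxifene, both antagonists of the estrogen receptor, were compared by ATAC-seq in T47D cells kept in complete medium. ATAC-seq measures chromatin accessibility: the Tn5 transposase inserts sequencing adapters where DNA is open. The comparison took the 4 fulvestrant and the 4 raloxifene libraries, 8 of the 24 libraries of the series, as their titles name them, and all 189403 peaks of the deposited count table (build hg38). Of these peaks, 156745 passed the filter on low counts and were tested. T47D is an established cell line from a human luminal breast cancer, and its cells carry the estrogen receptor.

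Cells of both groups stood for 1 day in complete medium with fetal bovine serum and phenol red and then received 100 nM of fulvestrant or 100 nM of raloxifene for 1 h. Vehicle libraries of the same medium (0.1% DMSO for 1 h) and tamoxifen libraries (100 nM for 1 h) served as points of reference. The other groups stood for 3 days in medium without phenol red and with charcoal-stripped serum and then received 0.1% DMSO or 1 nM estradiol for 1 h. Each of the 6 groups had 4 libraries. Nothing in the labels says that replicates were separate cultures, so the spread behind each p-value may be technical. The treatment label of vehicle replicates 3 and 4 in complete medium names fulvestrant, whereas title and description name DMSO, and these libraries were taken as vehicle.

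The estrogen receptor is a ligand-activated transcription factor. With estradiol it binds estrogen response elements, often far from promoters and together with the pioneer factors FOXA1 and GATA3, recruits coactivators and opens the chromatin around its sites. Fulvestrant is a steroid derived from estradiol with a long side chain and leads to degradation of the receptor, while raloxifene, a benzothiophene, is a selective modulator that leaves the receptor in place with its helix for coactivator binding displaced. Peaks that estradiol raised in the starved libraries were therefore described apart from all others. Those libraries are none of the 8 compared.

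A few promoters under estradiol-raised peaks are shown here, because most other peaks lie outside the sequences at hand. The estrogen response element was searched as GGTCANNNTGACC, which reads the same on both strands, in 35116 RefSeq promoters of GRCh38.p14, each 250 bases before and 50 bases after a start. It was found in 20 of them (0.057%), and with at most 1 other base in 0.817%. The single arm GGTCA, on either strand, was found in 37.4%, and every full element holds it as well. Of the 1274 estradiol-raised peaks, 23 overlapped a promoter window: 1 held the full element, 4 an element with at most 1 other base (that 1 included), 12 the single arm only and 7 none of these. Between fulvestrant and raloxifene, 17 of the 23 had a log2 difference below 0 and 6 above (-0.55 to 0.32). The following 3 are noncoding genes, chosen after their values were seen. Each carries a match within a peak that estradiol raised, but so do others of the 23. All 3 are among the 17, so they do not stand for the 23. The elements with 1 other base that are not shown lie on MICOS10 and LOC105378275, with smaller log2 differences of -0.19 and -0.17. The 12 peaks with the single arm only ranged from -0.55 (LOC107986054) to 0.096 (LOC101928502). The match in LINC02130 is to the full element, and that in LOC105371934 has 1 other base. LOC107986054 carries the single arm only. Capitals mark the match, and each sequence is read 5′ to 3′ on the minus strand of its gene, at chr16:14370217-14370516, chr17:40322475-40322774 and chr3:182699939-182700238.
LINC02130: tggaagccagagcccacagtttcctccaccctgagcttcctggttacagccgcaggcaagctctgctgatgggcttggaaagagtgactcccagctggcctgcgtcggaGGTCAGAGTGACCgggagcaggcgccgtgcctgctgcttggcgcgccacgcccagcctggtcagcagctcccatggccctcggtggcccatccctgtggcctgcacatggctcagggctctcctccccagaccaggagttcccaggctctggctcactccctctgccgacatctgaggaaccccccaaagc
LOC105371934: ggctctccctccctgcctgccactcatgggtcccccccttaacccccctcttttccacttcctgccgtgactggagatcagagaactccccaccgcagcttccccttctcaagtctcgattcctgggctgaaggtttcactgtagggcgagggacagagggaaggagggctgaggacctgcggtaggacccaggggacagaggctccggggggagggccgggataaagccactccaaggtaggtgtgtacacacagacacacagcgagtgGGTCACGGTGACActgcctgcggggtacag
LOC107986054: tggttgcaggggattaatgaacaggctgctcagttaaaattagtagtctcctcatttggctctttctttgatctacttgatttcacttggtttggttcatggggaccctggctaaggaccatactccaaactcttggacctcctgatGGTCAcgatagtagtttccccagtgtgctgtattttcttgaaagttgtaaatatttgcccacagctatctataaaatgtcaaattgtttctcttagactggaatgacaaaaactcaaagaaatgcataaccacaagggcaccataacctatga

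At the LINC02130 peak (chr16:14370306-14370539) the fulvestrant libraries read 28.2, 28.7, 22.3 and 7.85 CPM, the counts scaled to library size and the raloxifene libraries 36, 33.8, 32.3 and 35.2. All 4 fulvestrant libraries lay below all 4 raloxifene libraries, with a log2 difference of -0.39 (95% interval -0.632 to -0.146). The peak on the start of LOC105371934, inside the retinoic acid receptor gene RARA and 17.8 kb from the replication licensing gene CDC6, gave 85.2, 82.8, 66.3 and 31.4 CPM with fulvestrant and 90.2, 93.7, 99.6 and 97.6 with raloxifene (log2 difference -0.31, 95% interval -0.516 to -0.111). These groups did not overlap either. At LOC107986054 the values were 12.4, 9.62, 4.95 and 4.71 CPM with fulvestrant and 17.0, 15.5, 11.6 and 11.3 CPM with raloxifene, so that the groups overlapped. None of the 3 differences passed the test over all peaks (edgeR adjusted p 0.964, 0.964 and 0.965).

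Depth differed among the fulvestrant libraries. The raloxifene libraries held between 7772169 and 10218691 counts in peaks, fulvestrant replicates 1 to 3 held 11262408, 8553131 and 5448411, and fulvestrant replicate 4 held 434598. In replicate 4 of fulvestrant 36.1% of peaks had no count, its scaling factor was 1.558 against 0.9568 to 1.048 in the other 23 libraries, and the 10% of peaks with most counts took 38.13% of its counts against 50.05% to 54.93%. Results are therefore given with and without it. Of 6 markers of luminal epithelium, 4 had a peak on a promoter in the table (ESR1, FOXA1, GATA3 and KRT8), and their summed level was 92.7 to 206 CPM with fulvestrant (190 to 206 without replicate 4) and 197 to 227 with raloxifene. Of 6 basal or mesenchymal markers only ZEB1 had a promoter peak (summed level 7.85 to 10.8 and 10.1 to 11.6 CPM), and of 6 blood markers only CD14 (3.14 to 7.33 and 5.46 to 7.1). The promoter table is not complete, so a marker without such a peak is not shown to be closed.

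Between fulvestrant and raloxifene, accessibility differed at 1 peak after 1 h. It lies inside ZMIZ1, which encodes a coregulator of nuclear receptor transcription of the PIAS-like family, and was lower with fulvestrant. No peak was higher with fulvestrant. In shares of the tested peaks, 0.000638% were called lower and 0.0% higher (edgeR quasi-likelihood test, Benjamini-Hochberg adjusted p under 0.05). At an unadjusted p under 0.05, 3918 peaks were higher (2.5%) and 4175 lower (2.66%). DESeq2 called 0 peaks, with 4247 higher and 2771 lower at an unadjusted p under 0.05, and limma voom with sample weights called 0, with 5003 and 4425. EdgeR called the same peak and no other without fulvestrant replicate 4.

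The ZMIZ1 peak (chr10:79128630-79128949) read 41.8, 42.8, 29.9 and 14.1 CPM in fulvestrant replicates 1 to 4 and 58.0, 59.1, 55.4 and 60.1 in raloxifene replicates 1 to 4. The value of fulvestrant replicate 4 rests on 9 counts. All fulvestrant libraries lay below all raloxifene libraries, and the vehicle libraries, at 52.2, 45.2, 49.5 and 53.7 CPM, lay between them. The fitted log2 difference was -0.61 (SE 0.109, 95% interval -0.828 to -0.396), or 0.654-fold, with an edgeR adjusted p of 0.0411. Without fulvestrant replicate 4 the log2 difference was -0.57 and the edgeR adjusted p 0.0114. Estradiol raised this peak by 2.77 on the log2 scale in starved cells. The direction was the same in each of 37 other fits, with log2 differences of -1.07 to -0.45, but the call was kept in 15 and lost in 22 of them. It was lost when fulvestrant replicate 1 or 3 or any 1 raloxifene library was left out (edgeR adjusted p 0.0519 to 0.999). It was also lost without vehicle replicate 2, 3 or 4, which share the estimate of the spread (edgeR adjusted p 0.0552, 0.0652 and 0.0972).

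Among peaks above the median abundance, the 5 of smallest p in each direction were named, called or not. On the lower side these were ZMIZ1 and 4 peaks that did not pass the test. The second lies inside CASTOR2 (chr7:75000932-75001228), a paralog of the arginine sensor CASTOR1 upstream of mTORC1. It read 6.58, 4.32, 2.75 and 1.57 CPM with fulvestrant and 11.3, 12.5, 10.0 and 9.01 with raloxifene, without overlap, against 9.08, 7.02, 5.45 and 5.4 with vehicle. Its log2 difference was -1.15 (95% interval -1.58 to -0.722, edgeR adjusted p 0.063, without fulvestrant replicate 4 -1.12 and 0.129). Against vehicle the log2 difference was -0.48 for fulvestrant and 0.66 for raloxifene. Neither was called in the fit over all 24 libraries, and libraries of both groups overlapped the vehicle libraries. The fulvestrant replicate 4 value at this peak rests on 1 count.

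Inside PHACTR1, which encodes a protein that binds actin and protein phosphatase 1, the values were 6.31, 6.78, 5.31 and 0.0 CPM with fulvestrant and 9.83, 11.8, 11.9 and 11.7 with raloxifene (log2 difference -0.89). Inside ARHGEF28, which encodes a guanine nucleotide exchange factor, they were 3.02, 1.23, 2.01 and 0.0 CPM with fulvestrant and 6.52, 4.98, 4.89 and 4.37 with raloxifene (log2 difference -1.29). In both genes every raloxifene library was above every fulvestrant library, also among replicates 1 to 3. The edgeR adjusted p was 0.624 for both. All 5 peaks of the lower side share 1 feature that the comparison did not use: estradiol raised them in starved cells. The increase was 2.77 at ZMIZ1, 1.98 at CASTOR2, 1.50 at PHACTR1 and 2.21 at ARHGEF28 on the log2 scale.

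**Figure D1:**
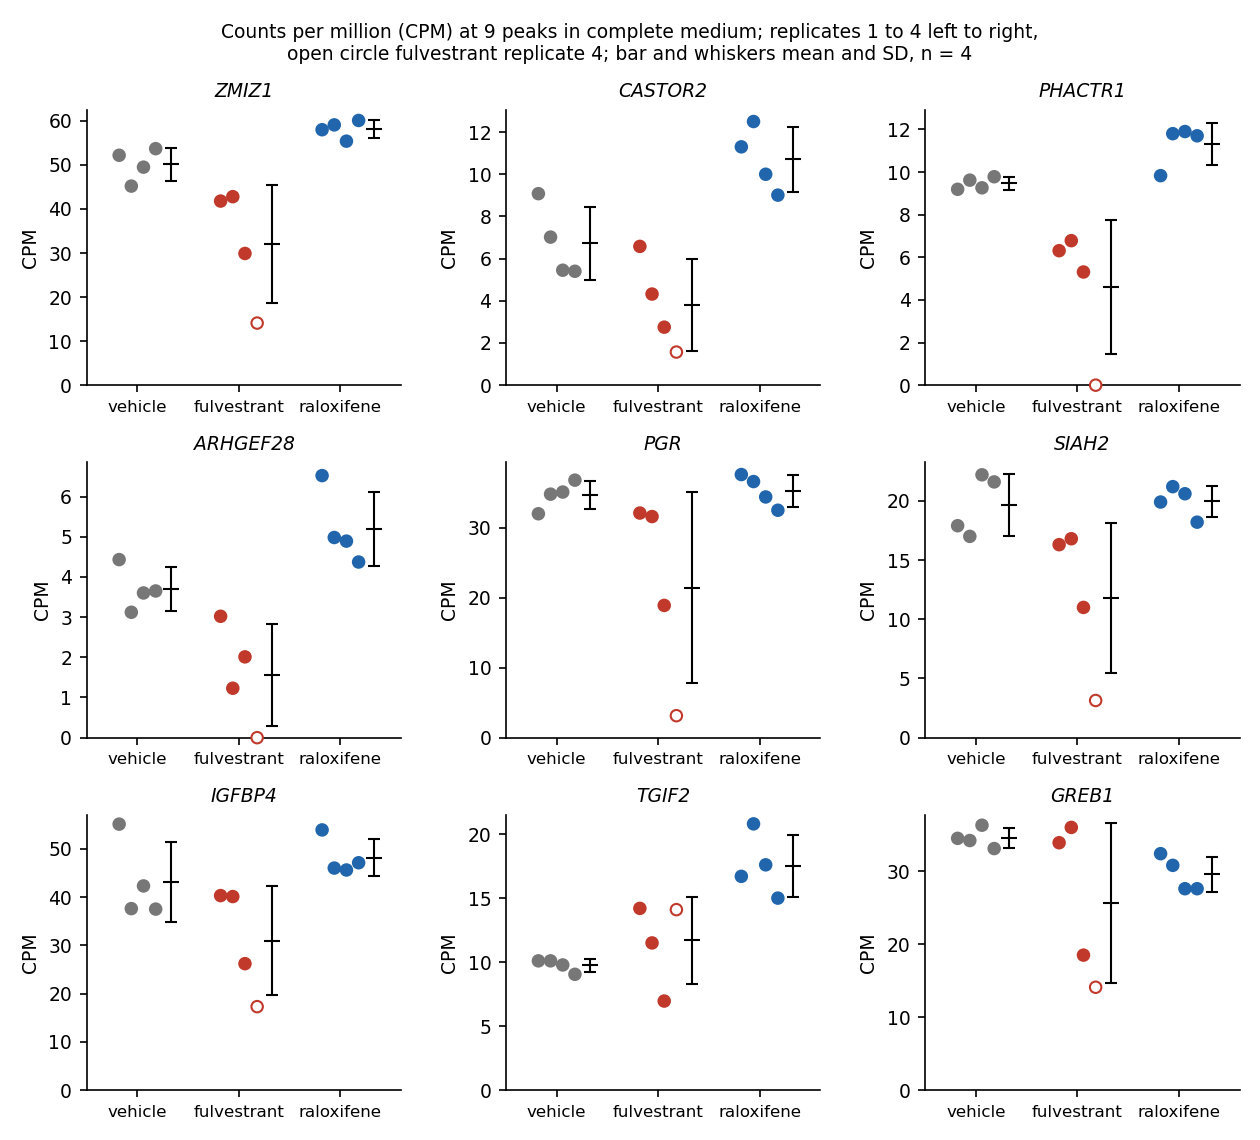
Accessibility in CPM (vertical axis) at 9 peaks, named by the gene they lie in or nearest to, in vehicle, fulvestrant and raloxifene libraries of complete medium; each point is a library, the open circle is fulvestrant replicate 4, and bar and whiskers are mean and SD of 4 libraries. At the ZMIZ1 peak the fulvestrant libraries lie between 14.1 and 42.8 CPM, below the raloxifene libraries at 55.4 to 60.1, whereas at the GREB1 peak shown the groups overlap.

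The 5 peaks above the median abundance with the smallest p on the higher side are named by the nearest gene. They lie 7.3 kb from ARC (an activity-regulated gene of neurons), 27.0 kb from SC5D (a desaturase of cholesterol synthesis), inside ACTA2 (smooth muscle actin), 12.6 kb from RNF216 (a ubiquitin ligase) and 378 kb from LRRC3B. The peak 27.0 kb from SC5D read 5.12, 3.95, 3.3 and 12.6 CPM with fulvestrant and 1.24, 2.43, 1.63 and 2.87 with raloxifene (log2 difference 1.18). Its value in fulvestrant replicate 4 rests on 8 counts. The peak inside ACTA2 read 3.57, 4.93, 2.38 and 1.57 CPM with fulvestrant and 2.38, 1.33, 1.16 and 1.36 with raloxifene (log2 difference 1.21). The overlap came through fulvestrant replicate 4, whose value rests on 1 count. Log2 differences at all 5 lay between 0.97 and 1.21, and the edgeR adjusted p was 0.964 for each. None of the 5 was called for estradiol in starved cells, where their log2 differences lay between -0.25 and 0.05.

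Over peaks of any abundance the directions were compared further down the order of p. Among the 10 peaks of smallest p lower with fulvestrant, 9 were estradiol-raised, among the first 50 there were 22, among 100 there were 34 and among 500 there were 79. Of the peaks higher with fulvestrant, 0 of the first 10, 50 and 100 and 1 of the first 500 were estradiol-raised. Estradiol-raised peaks made up 0.813% of all tested peaks, and estradiol-lowered peaks 0.0223%. Seen from the estradiol-raised set, the first 500 lower peaks held 6.20% of it. Without fulvestrant replicate 4, 10 of the first 10 lower peaks and 77 of the first 500 were estradiol-raised. Within replicates 1 and 2, where all libraries were deep, the counts were 7 of 10 and 70 of 500, and within replicates 3 and 4 they were 9 of 10 and 132 of 500. The lower peaks of smallest p were also more abundant than the higher ones (median of the first 100, 2.92 against 0.854 log2 CPM). With loess offsets, which take out the trend with abundance, 8 of the first 10 and 77 of the first 500 lower peaks were estradiol-raised.

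**Figure D2:**
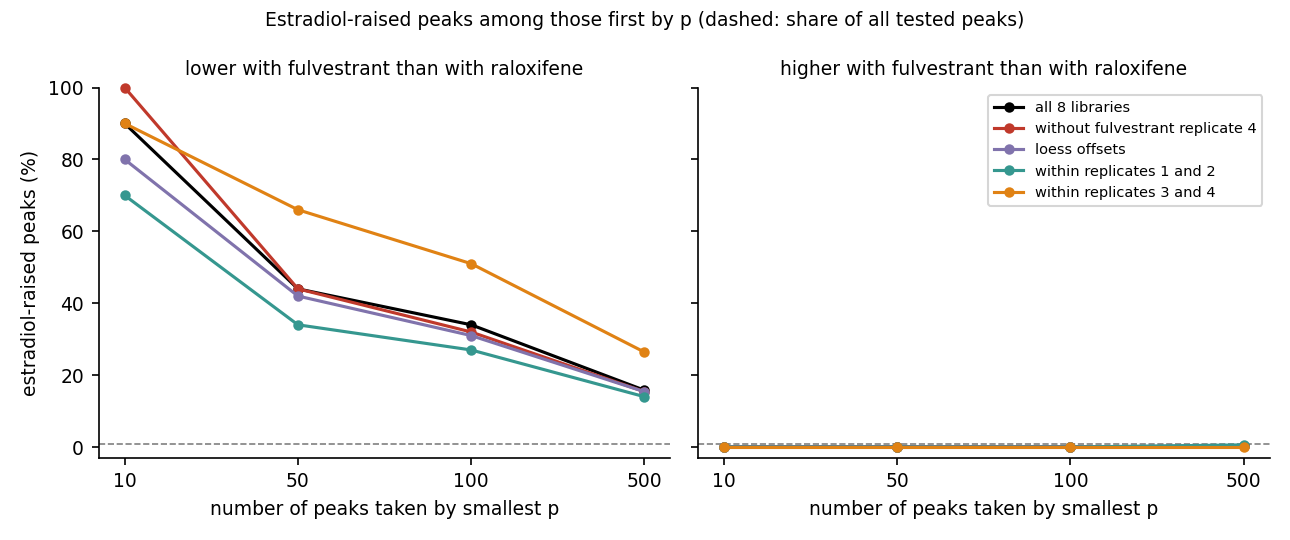
Percentage of estradiol-raised peaks (vertical axis) among the 10, 50, 100 and 500 peaks of smallest p (horizontal axis), for peaks lower (left) and higher (right) with fulvestrant than with raloxifene; colours are fits, and the dashed line is the 0.813% of all tested peaks that estradiol raised. On the left all fits lie above the line, with 70.0% to 100.0% at the first 10 peaks, and on the right all lie below it.

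The 1274 estradiol-raised peaks lay below the other peaks by a small amount. Their median log2 difference between fulvestrant and raloxifene was -0.18, against -0.0042 over all tested peaks. It was -0.15, against 0.0064, without fulvestrant replicate 4. At 145 of them (11.4%) all 4 fulvestrant libraries lay below all 4 raloxifene libraries, and at 2 (0.157%) all lay above. Over all tested peaks the shares were 2.46% and 1.19%. With fulvestrant replicates 1 to 3 only, 169 (13.3%) lay below and 11 (0.863%) above, against 3.20% and 2.81% over all tested peaks. On promoter windows, where peaks are also abundant, all 4 libraries lay below at 7.78% of peaks and above at 0.248%. At an unadjusted p under 0.05, 237 of the 1274 estradiol-raised peaks were lower and 11 higher with fulvestrant, 1 of them, the ZMIZ1 peak, being called. Over all tested peaks 2.66% were lower and 2.5% higher at that p.

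The median was farther from 0 where estradiol had raised the peaks more. The 314 peaks that estradiol raised under 2-fold had a median log2 difference of -0.14, the 665 raised 2-fold to 4-fold had -0.19 and the 295 raised at least 4-fold had -0.29. Without fulvestrant replicate 4 the medians were -0.10, -0.16 and -0.27, and with loess offsets -0.055, -0.15 and -0.29. Beside vehicle, the strongest class had a median of -0.21 with fulvestrant and 0.085 with raloxifene, 2 comparisons that share the vehicle libraries. The 1008 estradiol-raised peaks that were also higher in complete than in starved medium had a median difference of -0.18, and the other 266 had -0.12. By place, the medians were -0.17 for the 612 inside genes, -0.18 for the 639 between genes and -0.17 for the 23 on promoter windows.

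Other sets of peaks had medians nearer 0. The 35 estradiol-lowered peaks had a median of -0.037, with 0 at an unadjusted p under 0.05 lower and 1 higher. Peaks higher in complete than in starved medium made up 7.93% of those tested and peaks lower there 9.91%. Among the former, the 11415 that estradiol did not raise had a median of -0.0091, and the 15537 of the latter had 0.048. The difference between these sets and the estradiol-raised set was not tested.

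The log2 difference varied with abundance. Over all tested peaks, the median log2 difference went from 0.18 in the lowest of 10 classes of equal size to -0.098 in the highest, and without fulvestrant replicate 4 from 0.13 to -0.066. Estradiol-raised peaks had a lower median than all peaks in each of the 10 classes, for example -0.19 against 0.024 in the sixth and -0.18 against -0.098 in the highest. With these offsets, which bring the medians of these classes to between -0.0080 and 0.012, the estradiol-raised median was -0.14. The 12478 peaks on promoter windows, which are abundant, had a median of -0.10, and -0.021 with loess offsets.

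**Figure D3:**
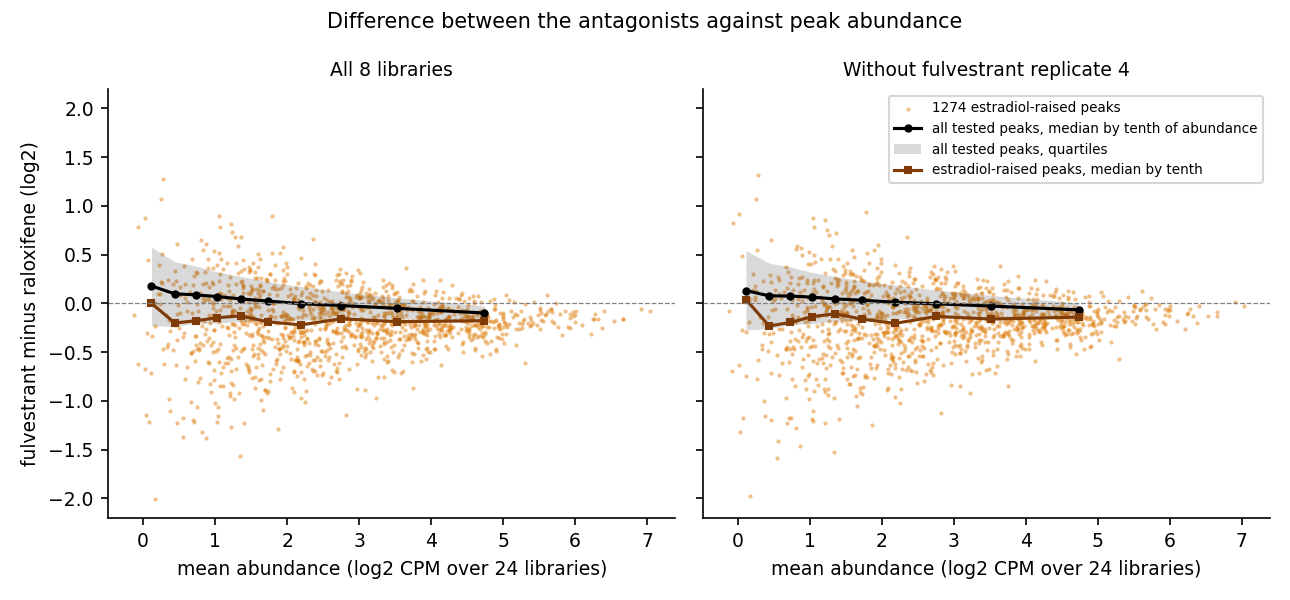
Log2 difference between fulvestrant and raloxifene (vertical axis) against mean abundance in log2 CPM (horizontal axis), with all 8 libraries (left) and without fulvestrant replicate 4 (right); points are the 1274 estradiol-raised peaks, the black line and band are median and quartiles of all tested peaks in 10 classes of abundance, and the brown line is the median of the estradiol-raised peaks. The brown line lies below the black line in each class, by less at the highest abundance (-0.18 against -0.098).

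Each library was also given 1 value. It is the log2 ratio of counts in the estradiol-raised peaks to counts in 6370 peaks that neither estradiol nor medium moved past the threshold, picked for like abundance. In fulvestrant replicates 1 to 4 it was 0.137, 0.135, -0.160 and -0.221, and in raloxifene replicates 1 to 4 it was 0.227, 0.225, 0.143 and 0.102. Vehicle libraries gave 0.219, 0.233, 0.148 and 0.153, close to raloxifene in the same order, and tamoxifen libraries 0.176, 0.224, 0.0112 and -0.00909. In starved vehicle the ratio was -0.985 to -0.934, below every fulvestrant library. The set was defined by being lower in these starved libraries than with estradiol, so a low ratio there follows from the choice.

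The mean ratio was -0.027 ± 0.190 with fulvestrant and 0.174 ± 0.0620 with raloxifene (SD, 4 libraries each). The difference of -0.20 on the log2 scale corresponds to 0.87-fold, with differences between single libraries from -0.45 to 0.035. The groups overlapped, since fulvestrant replicates 1 and 2 exceeded raloxifene replicate 4. Within replicates 1 and 2 the difference was -0.090 and within replicates 3 and 4 it was -0.31, and in each pair both fulvestrant libraries lay below both raloxifene libraries. No label describes replicates 1 and 2 and replicates 3 and 4 as separate batches. The difference was -0.14 without fulvestrant replicate 4. For the estradiol-lowered peaks, formed in the same way, it was -0.022, and for the 11415 peaks that only the medium raised, -0.0088.

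**Figure D4:**
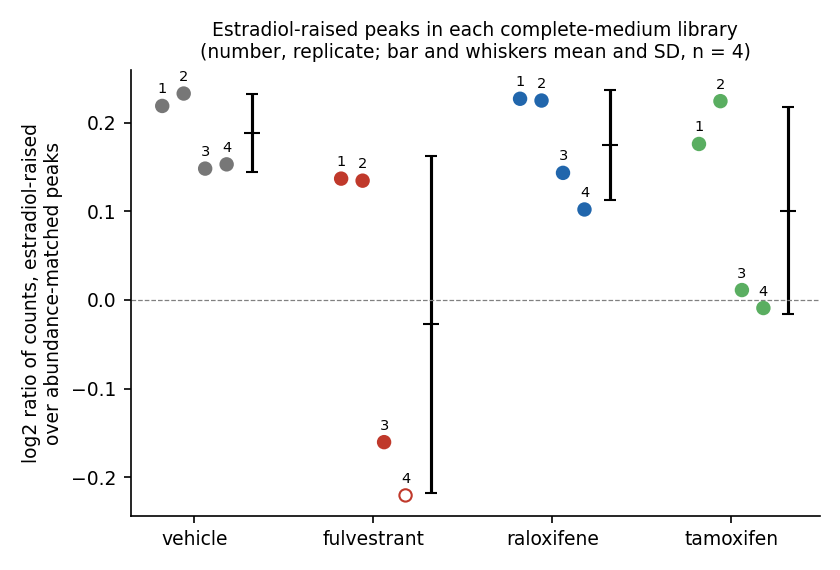
Log2 ratio of mean counts per peak, estradiol-raised over abundance-matched peaks (vertical axis), for each library of complete medium, by treatment. Numbers are replicates, the open circle is fulvestrant replicate 4, and bar and whiskers are mean and SD of 4 libraries. Fulvestrant libraries range from -0.221 to 0.137 and raloxifene libraries from 0.102 to 0.227.

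Named estrogen targets gave single-peak views of the same sites. For each gene of the lists of estrogen-induced and luminal genes, the nearby peak most clearly raised by estradiol was found. The 12 with the smallest estradiol p over different genes were taken, so they do not stand for all genes of the lists. Of these 12, the ZMIZ1 peak among them, 11 had a log2 difference below 0 (median -0.33, and -0.29 without fulvestrant replicate 4). At 7 the groups did not overlap, at 8 the 95% interval excluded 0, and at all 12 it lay within 2-fold. All fulvestrant libraries lay below all raloxifene libraries at 11.4% of estradiol-raised peaks and at 2.46% of all tested peaks. Over all tested peaks 60.5% of intervals lay within 2-fold. Apart from ZMIZ1 none was called. The lists were chosen with earlier results of these data known, so their direction is no independent evidence.

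PGR, which encodes the progesterone receptor and is a classic estrogen target, held a peak (chr11:101034171-101034404) with 32.1, 31.6, 18.9 and 3.14 CPM with fulvestrant and 37.6, 36.6, 34.4 and 32.5 with raloxifene. The highest fulvestrant library lay just under the lowest raloxifene library, and the log2 difference was -0.36 (95% interval -0.608 to -0.105). IGFBP4, the gene of a secreted protein that binds insulin-like growth factors, had 40.3, 40.1, 26.2 and 17.3 CPM with fulvestrant and 53.9, 46.0, 45.6 and 47.1 with raloxifene (log2 difference -0.43, 95% interval -0.74 to -0.12). SIAH2, the gene of an estrogen-induced ubiquitin ligase, had 16.3, 16.8, 11.0 and 3.14 CPM with fulvestrant and 19.9, 21.2, 20.6 and 18.2 with raloxifene (log2 difference -0.44, 95% interval -0.72 to -0.154). In all these genes fulvestrant replicates 1 and 2 were near each other and replicates 3 and 4 lower, while the 4 raloxifene libraries stayed close together. Without fulvestrant replicate 4 the log2 differences were -0.31, -0.40 and -0.40. At PGR, IGFBP4 and SIAH2 the value of that replicate rests on 2, 11 and 2 counts.

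TGIF2, which encodes a homeobox repressor of TGF-beta signalling, was a case in which all raloxifene libraries stood above vehicle, as at the ZMIZ1 peak. Its peak (chr20:36587377-36587616) read 14.2, 11.5, 6.96 and 14.1 CPM with fulvestrant, 16.7, 20.8, 17.6 and 15 with raloxifene and 10.1, 10.1, 9.78 and 9.05 with vehicle. It was the only peak called for raloxifene against vehicle (0.000638% of tested peaks), where it rose by 0.85 on the log2 scale (edgeR adjusted p 0.041), whereas fulvestrant against vehicle gave 0.25. Between the antagonists the log2 difference was -0.60 (95% interval -0.91 to -0.284, edgeR adjusted p 0.964). The raloxifene call depended on single libraries: without raloxifene replicate 1, 2 or 3, without fulvestrant replicate 2, or without any 1 vehicle library, edgeR called 0 peaks.

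GREB1, an estrogen-induced cofactor of the receptor, showed that peaks of 1 gene need not behave alike. The peak at chr2:11531048-11531281 had 33.9, 36, 18.5 and 14.1 CPM with fulvestrant and 32.4, 30.8, 27.6 and 27.6 with raloxifene. The groups overlapped, and the log2 difference was 0.018 (95% interval -0.24 to 0.277), with a sign that differed between fits. A second peak of the gene (chr2:11532540-11532845), named because other fits called it, had 10.7, 12.7, 6.41 and 0.0 CPM with fulvestrant and 19.2, 18.5, 12.7 and 13.9 with raloxifene (log2 difference -0.69, 95% interval -1.23 to -0.152). Only fulvestrant replicate 2 reached the lowest raloxifene library there.

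The remaining genes of the 12 filled the range between. The log2 difference was -0.34 for MLPH, which encodes a linker of Rab27a to myosin, -0.26 for SGK3, a kinase gene, and -0.32 for GRHL2, an epithelial transcription factor. For MYB, a transcription factor gene, it was -0.14 (95% interval -0.497 to 0.215) and for ADCY9, an adenylyl cyclase gene, -0.096 (95% interval -0.338 to 0.146). At GRHL2, MYB, ADCY9 and SGK3 the groups overlapped.

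**Figure D5:**
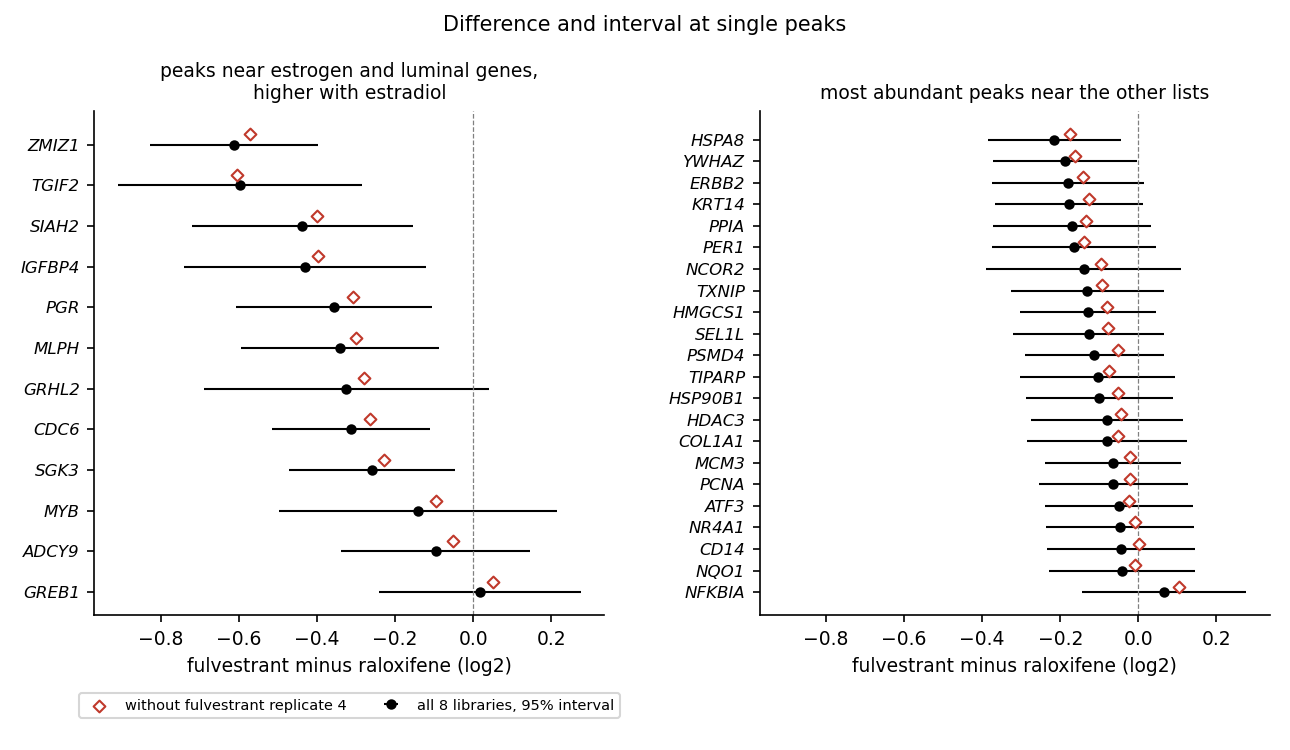
Log2 difference between fulvestrant and raloxifene (horizontal axis) with its 95% interval at single peaks, labelled by the listed gene within 50 kb; left, 12 peaks near estrogen-induced or luminal genes, right, 22 of the 24 peaks named as the most abundant of 12 other lists; open diamonds are the values without fulvestrant replicate 4. On the left 11 of 12 points lie below 0 and reach -0.61, and on the right the points lie between -0.22 and 0.065.

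When the set of replicates, 1 and 2 or 3 and 4, was added to the fit as a term, 7 peaks were called lower and 0 higher (0.00447% of tested peaks lower), 6 of them estradiol-raised. With the replicate number as a block 6 were called lower (0.00383%), all 6 estradiol-raised. Both sets of calls included ZMIZ1, CASTOR2, the second GREB1 peak, a peak inside MPPED2 (a metallophosphoesterase gene) and a peak 213 kb from GUCY1A2, its nearest gene (a subunit of soluble guanylate cyclase). The call added by the set term lies in TEX14, and estradiol did not raise it to the threshold (log2 difference with estradiol 1.20). The MPPED2 peak (chr11:30521722-30521928) read 10.9, 10.5, 4.21 and 0.0 CPM with fulvestrant and 16.6, 17.8, 12 and 13.5 with raloxifene, without overlap. Its log2 difference with the set term was -0.87 (edgeR adjusted p 0.0183). The GUCY1A2 peak read 8.96, 6.78, 3.3 and 0.0 CPM with fulvestrant and 19.1, 13.6, 10.2 and 8.46 with raloxifene, where each fulvestrant library lay below the raloxifene library of its own pair of replicates but the groups overlapped. Its log2 difference with the set term was -1.13 (edgeR adjusted p 0.000107).

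Within replicates 3 and 4 alone, the pair that holds the shallow library, 20 peaks were called lower (0.0124%) and 112 higher (0.0697%). Of the 20 lower peaks 15 were estradiol-raised, and of the 112 higher peaks 0. Within replicates 1 and 2 edgeR called 0 peaks, with 3561 higher and 3368 lower at an unadjusted p under 0.05. The ZMIZ1 peak had a log2 difference of -0.47 there (edgeR adjusted p 0.408).

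By gene list, peaks within 50 kb of list genes differed little. Around the 30 estrogen-induced genes, 741 peaks were tested, of which 64 were estradiol-raised: 302 had a difference above 0 and 439 (59.2%) below, against 50.6% below over all tested peaks, with 1 called lower and 0 higher. Their median was -0.059, against -0.0042 over all tested peaks, and 37 (4.99%) were lower and 14 (1.89%) higher at an unadjusted p under 0.05, against 2.66% and 2.5% over all tested peaks. The median was -0.037 without fulvestrant replicate 4. Around the 18 genes of luminal identity, 295 of 447 peaks (66.0%) lay below 0 (median -0.089, and -0.077 without fulvestrant replicate 4), with 26 (5.82%) lower and 10 (2.24%) higher at an unadjusted p under 0.05. Around the 16 immediate early genes the median over 272 peaks was -0.077, and around the 11 genes of the unfolded protein response it was -0.068 over 156 peaks. With loess offsets these 4 medians were -0.022, -0.047, -0.037 and -0.026.

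The remaining lists, some of which stand for other routes of drug action, gave medians between -0.051 and 0.038 within 50 kb. These were -0.046 for 10 estrogen-repressed genes, 0.020 for 19 coactivators and corepressors of the receptor, and -0.051 for 22 genes of ubiquitin, SUMO and the proteasome. Glucocorticoid and progestin targets gave -0.026, targets of the aryl hydrocarbon receptor 0.038, genes of sterol synthesis -0.018 and cell cycle genes -0.041. Housekeeping genes gave -0.030, basal and mesenchymal markers 0.028 and blood cell markers 0.028. No peak of these lists was called. At an unadjusted p under 0.05, 5.94% of peaks were lower around sterol synthesis genes (1.83% higher) and 5.80% around housekeeping genes (2.23% higher). These shares were like those of the estrogen-induced and luminal lists. Cell cycle genes had 4.46% lower, and the other lists of this paragraph 0.943% to 4.32%. Leaving out fulvestrant replicate 4 gave -0.021 for estrogen-repressed and -0.021 for cell cycle genes and -0.0039 for sterol synthesis. It gave -0.020 for housekeeping genes and 0.057 for targets of the aryl hydrocarbon receptor. Within 10 kb, with all libraries, the median was -0.057 for estrogen-induced and -0.10 for luminal genes. It was -0.086 for estrogen-repressed, -0.075 for sterol synthesis and -0.066 for housekeeping genes. The ubiquitin, SUMO and proteasome list gave -0.060 there, and the other lists of this paragraph -0.041 to 0.027. At that distance the estrogen-induced list thus did not stand apart from these lists.

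For each of the 12 other lists the 2 most abundant peaks over different genes were named, 24 in all. They had log2 differences between -0.22 and 0.065, and each 95% interval lay within 1.5-fold. At HSPA8, a chaperone gene, the values were 112.0, 128.0, 103.0 and 69.1 CPM with fulvestrant and 130.0, 122.0, 128.0 and 141.0 with raloxifene, with an overlap through fulvestrant replicate 2 (log2 difference -0.22, 95% interval -0.385 to -0.0453). At NQO1, a target of the aryl hydrocarbon receptor and of NRF2, they were 75.3, 66.7, 73.1 and 42.4 CPM with fulvestrant and 72.4, 65.8, 72.5 and 79.2 with raloxifene (log2 difference -0.041, 95% interval -0.228 to 0.146). At HMGCS1, an enzyme gene of sterol synthesis, the log2 difference was -0.13 (95% interval -0.303 to 0.0443), and at PCNA, the sliding clamp of replication, -0.064 (95% interval -0.254 to 0.126). At these 4 genes fulvestrant replicate 4 was the lowest of the 8 libraries.

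Beside vehicle in the same fit, fulvestrant gave 0 called peaks (0.0%, with 3032 higher and 3180 lower at an unadjusted p under 0.05; DESeq2 also 0, with 2735 and 2085). Raloxifene gave 1, the TGIF2 peak, and none with DESeq2 (1426 higher and 2201 lower at an unadjusted p under 0.05). Both comparisons share the vehicle libraries. At estradiol-raised peaks the median log2 difference from vehicle was -0.16 with fulvestrant and 0.014 with raloxifene. At the 11415 peaks that were higher in complete than in starved medium but not raised by estradiol, it was -0.096 and -0.083. Those peaks were picked for high values in these same vehicle libraries. That choice by itself favours values below 0, so no drug effect is read from them. Against tamoxifen, edgeR called 0 peaks for fulvestrant and 0 for raloxifene, with 4051 higher and 4216 lower for fulvestrant and 2902 and 3245 for raloxifene at an unadjusted p under 0.05, and no other tool was run on these 2 pairs.

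A peak that missed the test is not shown to be equal with both compounds. The median SE of the log2 difference was 0.325 over all tested peaks, 0.222 at estradiol-raised peaks and 0.143 on promoter windows. The 95% interval lay within 1.5-fold at 25.7% and within 2-fold at 60.5% of the 156615 tested peaks with an SE. On promoter windows these shares were 73.8% and 92.3%, and at estradiol-raised peaks 36.7% and 76.4%. At the remaining peaks a difference of 2-fold or more was therefore not excluded at this depth, and intervals cover the spread between these libraries only.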

How the data were processed

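Accessibility was measured by ATAC-seq, and the authors deposited raw read counts per peak, with no normalization, in 1 table for all 24 libraries. Per the submitters' processing notes, cutadapt 1.8.1, Bowtie2 2.4.4, SAMtools 1.9 and the build hg38 were used. For the peak caller, the counting tool, duplicates, any Tn5 shift and the base from which peak starts count, the answer is: not given in the sources used here. Duplicates and fragment counting set how far reads are independent, so intervals cover the spread between libraries or counting error only.

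Low peaks were left out by filterByExpr (at least 10 counts, and 15 in total), and the rest were scaled by TMM. They were fitted over all 24 libraries with edgeR 4.0.16 (R 4.3.3) by the robust quasi-likelihood F-test. The threshold was a Benjamini-Hochberg adjusted p under 0.05. Log CPM values of single libraries used a prior count of 2, which was not set for the fit. Standard errors are the log2 difference over the root of F. CPM values are counts scaled by TMM library sizes. Loess offsets used a span of 0.3 and 4 iterations. DESeq2 1.42.0 and limma 3.58.1 (voom) were alternatives, together with other scalings, filters, libraries and covariates, and those added after seeing the data are the loess and block fits without fulvestrant replicate 4, further libraries left out and the order by p. The code was tested on simulated data.

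Genes and promoters come from RefSeq tables of GRCh38.p14 (20056 protein-coding genes, 35116 promoters), which give gene spans but no exons. Named were called peaks and the 5 peaks of smallest p in each direction above the median abundance. Within 50 kb of estrogen-induced or luminal genes, the 12 estradiol-responsive peaks of smallest estradiol p over different genes were named. Of each other list the 2 most abundant peaks were named. Peaks that other fits called were added, and a few named peaks are not reported here, though counts include them. The comparison, the 14 gene lists and the split into replicates 1 and 2 and replicates 3 and 4, which no label gives, were chosen with earlier results of these data known.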

Additional observations from a re-analysis of the deposited data

Results flagged for a closer look

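Among the named peaks, 94 groups of 4 libraries were examined for a library far from the other 3, by the gap to its nearest neighbour as a share of the group's range of log CPM. Such a gap was found in 15 groups, and chance gives about 1 in 20. In 13 of the 15 the library was fulvestrant replicate 4, the shallow one, as the lowest. The share was 0.93 at PHACTR1, 0.859 at LRRC3B, 0.942 at MYB and 0.831 at the second GREB1 peak. Near ERBB2, HDAC3, PSMD4 and NR4A1 it was 0.835, 0.932, 0.843 and 0.853. Near HMGCS1, SEL1L and PPIA it was 0.941, 0.841 and 0.919. Near COL1A1 and CD14 it was 0.89 and 0.865. The remaining 2 groups were raloxifene, with replicate 1 lowest at PHACTR1 (0.943) and replicate 2 lowest near KRT14 (0.889).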

How the results depend on the processing

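The call between fulvestrant and raloxifene (1 peak) was unstable. It was 0 with no filter, with only the groups compared or only complete-medium libraries, within replicates 1 and 2, with the older edgeR fit, thinned libraries, limma voom or DESeq2, and without vehicle replicates 3 and 4. It was 2 above the median abundance, 7 with the replicate set as a term and 132 within replicates 3 and 4 (112 higher, 20 lower). With the replicate block it was 6, and 7 without fulvestrant replicate 4 as well. Leaving out 1 library, or fulvestrant replicate 4 and 1 other, gave 0 to 2. Of 1237 refits of 49 named peaks, 22 lost the call and 23 gained it. In 66 refits of 19 uncalled peaks, whose log2 differences were at most 0.141 in size, the sign turned, with 0 of them called. Each of the 70 refits moved a list median by under 0.1, a bound wider than the medians themselves.

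The 8093 peaks at an unadjusted p under 0.05 became 4044 above the median abundance (1065 higher, 2979 lower) and 17716 within replicates 3 and 4, and 6917 to 10811 with libraries left out. The split was 4395 higher and 3440 lower with RLE factors and 4804 and 2946 with total counts. Fulvestrant against vehicle gave 0 calls, 2 with the replicate block and 4 with the set term, 1 lower within replicates 1 and 2, 73 higher and 15 lower within replicates 3 and 4, and 0 with each library left out. Raloxifene against vehicle gave 1 call, and 0 with no filter, with DESeq2 and without vehicle replicates 3 and 4. It also gave 0 with total counts, the older edgeR fit and limma voom, within replicates 1 and 2 and within replicates 3 and 4. The count was 2 with only the groups compared, with the replicate block and with the set term, and 0 to 1 with libraries left out. The cause of these changes was not tested. Estradiol calls were 1309, and 1376 without fulvestrant replicate 4. The ratio difference of -0.20 was -0.26 to -0.14 with libraries left out and -0.20 with the replicate block. Deviations of same-numbered fulvestrant and raloxifene libraries correlated at 0.114, -0.00458, 0.0449 and 0.0427. The highest correlation with a raloxifene library of another number was -0.0161, 0.158, 0.0412 and 0.0277. The numbers were not taken to pair the samples, a choice that these small values do not settle. The replicate block and the set term were therefore given as other fits. Fulvestrant replicate 4, with 434598 counts, limits the depth.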
